A study of Mus musculus with 30 samples.

Results

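The comparison described here is that of C59-treated with DMSO-injected (wild-type control) forelimb buds 6 h after injection, across autosomal genes. It rests on 6 of the 30 libraries of a polyA RNA-sequencing time course, chosen by their labels, with 3 biological replicates for each treatment. All embryos were wild-type Swiss Albino mice. Pregnant females were injected at embryonic day E10.5 either with DMSO in saline or with Wnt-C59 (C59), and the forelimb buds were collected 6 h later. The C59 solution also held methylcellulose and Tween-20, which the control solution did not, so the drug and these additives cannot be told apart. Per the study's methods, RNA of each replicate came from a pair of forelimb buds, and treated embryos were staged by the time since injection and by limb bud size. The other 24 libraries cover 1, 12, 18 and 24 h and are used only to place the 6 h values.

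C59 inhibits porcupine, the enzyme of the endoplasmic reticulum that attaches a lipid to WNT proteins. Without that lipid a WNT protein is neither secreted nor able to bind its Frizzled receptor. In responding cells WNT binding stabilises β-catenin, which enters the nucleus and activates genes together with LEF/TCF factors. Many of these genes encode inhibitors of the same pathway, which makes them a readout of it. In the limb bud, WNT ligands from the ectoderm and the apical ectodermal ridge (AER, the FGF-producing rim of the bud) act with FGFs to keep the mesenchyme below proliferative and undifferentiated.

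The libraries held from 18188636 to 25290624 counts, of which 95.7 to 98.1% fell on protein-coding genes. Replicates differed by more than sampling noise (3.68 to 10.9 for the chi-square statistic over its degrees of freedom). In DMSO replicate 1 a single ribosomal RNA gene took 0.204% of the counts, against 2.17 to 2.55% in the other libraries. Embryo sex differed between the groups. The FPKM of 4 Y-linked genes summed to 0 in each DMSO library and to 20.3, 19.8 and 33.2 in the C59 libraries, and *Xist* stood at 40.2, 56.0 and 47.4 FPKM in DMSO and at 29.5, 24.8 and 11.4 FPKM in C59. Each C59 library thus held both signals, whereas C59 replicates 1 and 2 of 1 h had Y-linked sums of 36.96 and 38.2 FPKM with *Xist* below 0.1 FPKM. *Xist* is transcribed in female and the Y-linked genes in male embryos, so the C59 libraries read as mixtures of both sexes, and how the stated pair of buds gave both was not given. The treatment and the sex makeup of these 6 libraries therefore cannot be told apart in a fit of them alone. Counts of called genes are given below also for a fit over all 30 libraries with the Y-linked sum as a covariate. The sum was entered on the log2 scale after adding 1.

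The tissue label was checked against markers. The summed level of 6 forelimb mesenchyme genes was 1951 to 1979 CPM in DMSO and 1416 to 1518 CPM in C59, with 4 of the 6 lower. CPM are counts scaled to a common, normalized library size. Such a sum also falls when single members respond to the treatment, so it is no measure of the amount of mesenchyme. *Tbx5*, which specifies the forelimb, stood at 222, 214 and 212 CPM in DMSO and at 206, 202 and 206 CPM in C59, while *Pitx1* and *Tbx4*, the hindlimb genes, summed to 14.5 to 16.2 CPM and 16.7 to 21.5 CPM. Ectoderm, endothelium, muscle progenitor, erythroid, macrophage, Schwann cell and somite markers were all detected, and no marker was at 0 in all 6 libraries. In bulk tissue, fewer cells of a type and less RNA per cell cannot be told apart.

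At 6 h 153 of 13100 protein-coding genes tested (1.17%) were called, meaning that edgeR gave them an adjusted p (Benjamini-Hochberg, quasi-likelihood F test) below 0.05 and that their levels differed by more than 1 on the log2 scale. Of the 153 genes, 97 were lower in C59-treated limb buds (0.74% of genes tested) and 56 were higher (0.427%). A fit that also took in the non-coding autosomal genes called 227 of 14890 (1.52%). Without a minimum fold, 2565 genes passed (19.6%), with 1491 lower (11.4%) and 1074 higher (8.2%), and those short of the fold had a median change of only 0.28 on the log2 scale in either direction. Biological variation between replicates was small (coefficient of variation 5.65%). With the Y-linked sum as a covariate over all 30 libraries, 101 genes were called, of which 30 were higher. The fit of the same 30 libraries without it called 155. Of the 240 genes followed by name in these 3 fits, 221 passed in the fit of the 6 libraries, 182 in the fit of 30 libraries and 140 in that with the covariate. Those described below that did not pass with the covariate are given beside their values. The part of embryo sex in single genes was not tested beyond this covariate. It was not entered in the fits at 1 and 12 h or in the contrasts between times given below.

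The 97 lower genes each had C59 libraries below every DMSO library, as did 19.8% of all genes tested, and 37 of them reached 10 CPM in either group. Among the 56 higher genes, 55 had C59 libraries above every DMSO library, as did 16.9% of all genes, but 40 of them stayed under 5 CPM in both groups and 11 reached 10 CPM. Set against the 12 DMSO libraries of the other times, the C59 libraries lay below all of them for 45 of the 97 lower genes (4.31% of all genes tested), and above all of them for 6 of the 56 higher genes (4.35% of all genes tested).

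*Axin2* (ENSMUSG00000000142, chromosome 11, 108920349 to 108950783, mm10), the scaffold of the β-catenin destruction complex, stood at 106, 115 and 102 CPM in the DMSO libraries and at 28.3, 28.7 and 25.9 CPM in the C59 libraries. Its log2 fold change was -1.97 ± 0.06 (SE, edgeR adjusted p = 7.55e-11). The groups did not overlap, and the spread within each was a small part of the gap between them. *Apcdd1*, a membrane-bound WNT inhibitor, stood at 92.5, 94.7 and 95.9 CPM in DMSO and at 16.95, 16.5 and 15.99 CPM in C59, a log2 fold change of -2.52 ± 0.06 (edgeR adjusted p = 4.46e-12), the smallest adjusted p of all genes tested. *Nkd2*, which binds Dishevelled and dampens the signal, measured 89.7, 91.9 and 89.5 CPM against 24.4, 21.7 and 19.95 CPM (-2.04 ± 0.07, edgeR adjusted p = 1.24e-10). Its relative *Nkd1* fell less, by 1.07 ± 0.06 on the log2 scale, from 82.9, 82.8 and 82.1 CPM to 41.2, 36.8 and 40.0 CPM (edgeR adjusted p = 2.45e-08).

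*Sp5* (chromosome 2, 70474923 to 70477729), a zinc-finger repressor that competes for promoters of WNT target genes, fell the most among called genes that averaged at least 1 CPM and were detected in both groups. It was at 5.23, 6.68 and 5.62 CPM in DMSO and at 0.253, 0.144 and 0.352 CPM in C59, a log2 fold change of -4.50 ± 0.29 (edgeR adjusted p = 2.68e-07). *Notum*, a secreted enzyme that cleaves the lipid from WNT proteins, stood at 6.79, 6.58 and 7.41 CPM in DMSO and at 0.633, 1.01 and 0.308 CPM in C59 (-3.42 ± 0.27, edgeR adjusted p = 1.87e-06). Both genes were thus close to their detection limit after treatment, and their fold changes carry larger errors than that of *Axin2*. *Mycn*, a growth-promoting transcription factor, went from 144, 147 and 135 CPM to 46.3, 52.8 and 52.7 CPM (-1.49 ± 0.06, edgeR adjusted p = 1.18e-09).

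Of 19 WNT feedback and target genes listed, 18 were tested, since *Cdx2* was below the count filter. The list passed without a minimum fold for 16 lower and 1 higher gene, and 9 of the lower genes were called. This count, like that of each list below, stands against 11.4% of all genes lower and 8.2% higher. Its median log2 fold change was -0.97, against 0.01 for all genes tested. With the Y-linked covariate the number of lower genes was also 16. The nuclear partners of β-catenin went in both directions. *Lef1* fell by 0.83 ± 0.07 (60.8, 56.3 and 56.1 CPM to 33.6, 29.4 and 34.8 CPM) and *Tcf7* by 0.91 ± 0.06 (61.4, 57.5 and 54.1 CPM to 30.5, 29.9 and 31.9 CPM), whereas *Tcf7l1* rose by 0.27 ± 0.05 and *Tcf7l2*, listed with the core components, by 0.69 ± 0.06 (62.2, 71.6 and 62.5 CPM to 112, 99.9 and 105 CPM). None of the 4 passed the fold threshold. *Ccnd1*, the cyclin of the early cell cycle, fell by 0.30 ± 0.05, and *Bambi*, a BMP pseudoreceptor, by 0.60 ± 0.06. *Lgr5*, an R-spondin receptor, was called at -1.03 ± 0.22, but stood at -0.83 without DMSO replicate 2 and at -0.88 without C59 replicate 1. *Ccn2* had no detectable change (0.30 ± 0.16, edgeR adjusted p = 0.216).

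**Figure D1:**
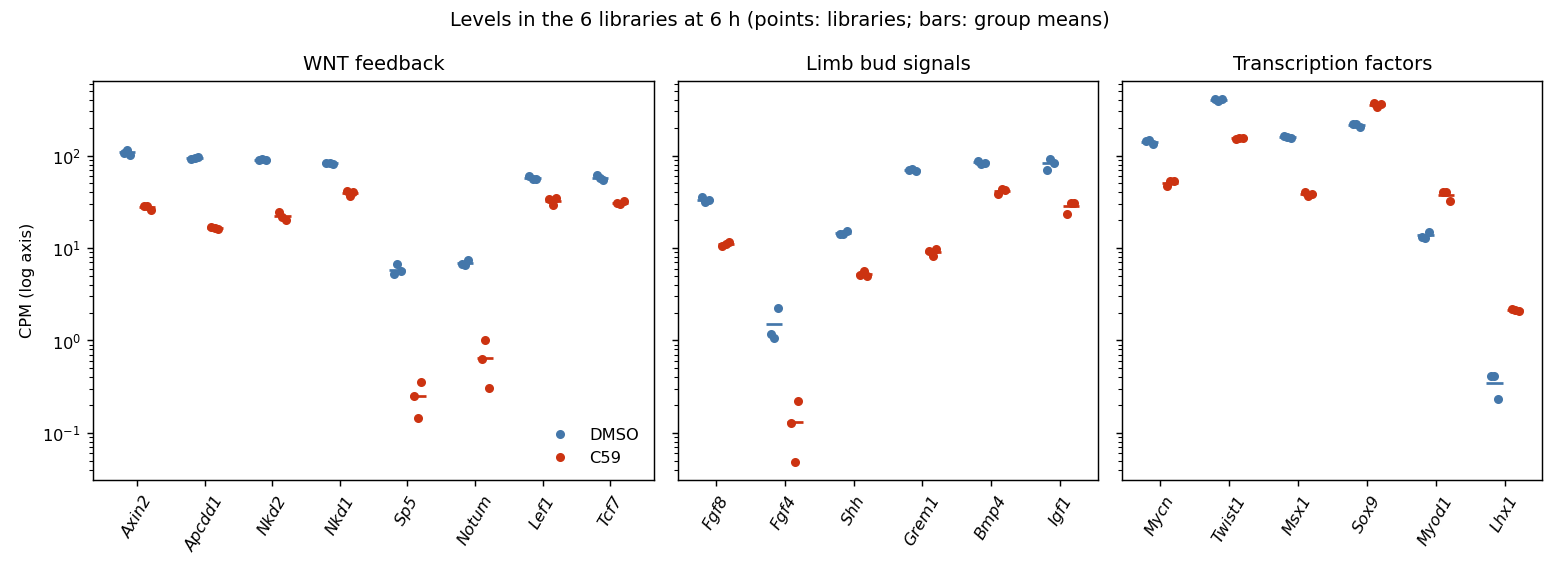
Level of 20 genes in each of the 6 libraries at 6 h, in CPM on a log axis, with WNT feedback genes, limb bud signals and transcription factors in separate panels. Points are libraries and bars are group means. For *Axin2* the C59 libraries lie between 25.9 and 28.7 CPM and the DMSO libraries between 102 and 115 CPM, and for *Sox9*, *Myod1* and *Lhx1* the C59 libraries lie above the DMSO libraries.

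Promoter sequence of called genes was searched for the words that LEF/TCF proteins are known to bind, written CTTTG followed by AA, AT, TA or TT, on both strands, in the RefSeq promoters of GRCm38.p6 that reach from 250 bases before to 50 bases after a start. Among tested genes 10315 of 13098 symbols matched a promoter, and 11.4% of all their promoters held a word. Counted by gene, a word was present in a promoter of 13.6% of all genes matched (1405 of 10315), of 25% of the called lower genes (18 of 72), of 15.6% of the called higher genes (7 of 45) and of 5 of the 11 matched genes of the WNT feedback list. Called genes without a matched promoter were not searched. A word in a promoter is a description and not a binding site. The *Sp5* promoter carried 2 words and is shown because of that decrease, as the 250 bases before its start (chr2:70474673-70474922, plus strand), with the words in capitals.
Sp5: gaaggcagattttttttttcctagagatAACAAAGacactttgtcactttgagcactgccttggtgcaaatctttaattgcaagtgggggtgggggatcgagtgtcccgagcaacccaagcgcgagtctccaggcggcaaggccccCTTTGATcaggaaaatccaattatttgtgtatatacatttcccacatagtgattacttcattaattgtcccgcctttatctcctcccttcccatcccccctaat
The words begin 222 and 104 bases before the start, the farther of them read on the opposite strand. Shorter windows around the word follow for *Tnfrsf19*, a TNF receptor family member, *T* (Brachyury), a T-box factor, and *Aen*, a nuclease induced by p53, and around both words of the growth factor gene *Igf1*, all called lower.
Tnfrsf19 (chr14:61038173-61038199, minus strand): tgaatgggggATCAAAGtgacaaacta
T (chr17:8434178-8434204, plus strand): tgctcggtacTTCAAAGggtgtcccgc
Aen (chr7:78895696-78895722, plus strand): ggctttaagtCTTTGAAggttgcggtt
Igf1 (chr10:87860915-87860941, plus strand): gcgtggtggtCTTTGAAacatagctca
Igf1 (chr10:87860985-87861011, plus strand): cgcctgctggCTTTGTActctgaggct
*Tnfrsf19* went from 50.9, 46.1 and 46.8 CPM to 16.5, 16.6 and 16.3 CPM, a log2 fold change of -1.54 ± 0.07 (edgeR adjusted p = 2.49e-09). *T* measured 1.47, 1.68 and 1.91 CPM against 0.801, 0.433 and 0.661 CPM (-1.39 ± 0.32, edgeR adjusted p = 0.00729). *Aen* fell from 57.7, 63.8 and 55.5 CPM to 28.2, 28.6 and 28.3 CPM (-1.06 ± 0.06), or by just under 1.00 on the log2 scale without DMSO replicate 2.

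Secreted WNT antagonists fell with the feedback genes. Of 13 tested, 9 were lower and 1 higher without a minimum fold, 5 lower genes were called, and the median was -0.43. Besides *Notum*, these were *Dkk2*, *Dkk1* and *Sost*, which block the LRP coreceptor, and the WNT-binding protein *Wif1*. *Dkk2* stood at 15.4, 14.6 and 14.5 CPM in DMSO and at 4.05, 4.91 and 5.51 CPM in C59 (-1.63 ± 0.13, edgeR adjusted p = 1.6e-06). *Sost* went from 16.2, 16.8 and 14.6 CPM to 4.43, 5.48 and 6.08 CPM (-1.58 ± 0.13, edgeR adjusted p = 2.1e-06), and *Wif1* from 30.02, 34.2 and 36.3 CPM to 13.1, 11.6 and 12.8 CPM (-1.42 ± 0.09, edgeR adjusted p = 1.87e-07). None of these groups overlapped. *Dkk1* fell by 1.07 ± 0.11 with 21.3, 18.1 and 19.6 CPM against 9.61, 8.03 and 10.4 CPM, and by 0.97 without C59 replicate 2.

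Receptors moved in both directions. Of 24 receptor and R-spondin genes, 3 were called lower (*Fzd10*, *Lgr6* and the *Lgr5* given above), 7 were lower and 4 higher without a minimum fold, and the median was -0.01. *Fzd10* fell from 103, 103 and 101 CPM to 26.6, 25.3 and 25.4 CPM, a log2 fold change of -1.99 ± 0.05 (edgeR adjusted p = 9.84e-12). *Lgr6*, an R-spondin receptor, was called at low counts, with 3.56, 2.75 and 2.49 CPM against 0.759, 1.35 and 1.32 CPM (-1.38 ± 0.27, edgeR adjusted p = 0.00315). In the opposite direction, *Fzd8* rose from 30.8, 31.4 and 30.6 CPM to 48.6, 50.6 and 44.8 CPM (0.63 ± 0.06, edgeR adjusted p = 1.54e-05). *Fzd4* rose by 0.48 ± 0.06. Within the R-spondins, which prolong Frizzled life at the membrane, *Rspo4* fell by 0.82 ± 0.12 and *Rspo3* rose by 0.52 ± 0.07.

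Ligand genes changed less than the feedback genes. Among 16 tested, 7 were lower and 4 higher without a minimum fold, with a median of -0.26. Several of them did not pass with the Y-linked covariate. These included *Wnt10a*, *Wnt16* and *Wnt5b* among the lower genes (edgeR adjusted p = 0.116, 0.121 and 0.272). Among the higher genes they were *Wnt9a*, *Wnt4* and *Wnt5a* (edgeR adjusted p = 0.419, 0.451 and 0.223). *Wnt11*, a ligand known for non-canonical signaling, fell from 29.0, 23.0 and 29.2 CPM to 14.8, 19.2 and 13.6 CPM (-0.78 ± 0.12, edgeR adjusted p = 0.000574), *Wnt10b* by 0.76 ± 0.17 and *Wnt6* by 0.36 ± 0.07 (edgeR adjusted p = 0.192 with the Y-linked covariate). *Wnt7b* rose by 0.33 ± 0.07. For the AER ligand *Wnt3* and the dorsal ectoderm ligand *Wnt7a* no change was detected (-0.24 ± 0.10 and -0.01 ± 0.11, edgeR adjusted p = 0.128 and 0.967). The only called ligand, *Wnt2b* (-1.01 ± 0.28), lost its call in 3 of the 6 fits that left out a library (-0.99 without DMSO replicate 1, -0.93 without DMSO replicate 2 and -0.70 without C59 replicate 1).

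No gene of the intracellular machinery was called. Of 18 secretion and β-catenin core genes 2 were lower (11.1%, against 11.4% of all genes) and 4 higher (22.2%, against 8.2%) without a minimum fold, and the median was 0.05. *Ctnnb1*, which encodes β-catenin, measured 1886, 1830 and 1872 CPM in DMSO and 1905, 1904 and 1895 CPM in C59 (0.03 ± 0.04, edgeR adjusted p = 0.634). *Wls*, the carrier of lipid-modified WNT proteins, measured 160, 153 and 161 CPM against 153, 147 and 152 CPM (-0.07 ± 0.04, edgeR adjusted p = 0.33). The genes that fell were the corepressors *Tle1* (by 0.47 ± 0.05) and *Tle3* (by 0.46 ± 0.04). Among 13 planar polarity genes, which act in the branch without β-catenin, 4 were higher and none lower, with a median of 0.14.

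**Figure D2:**
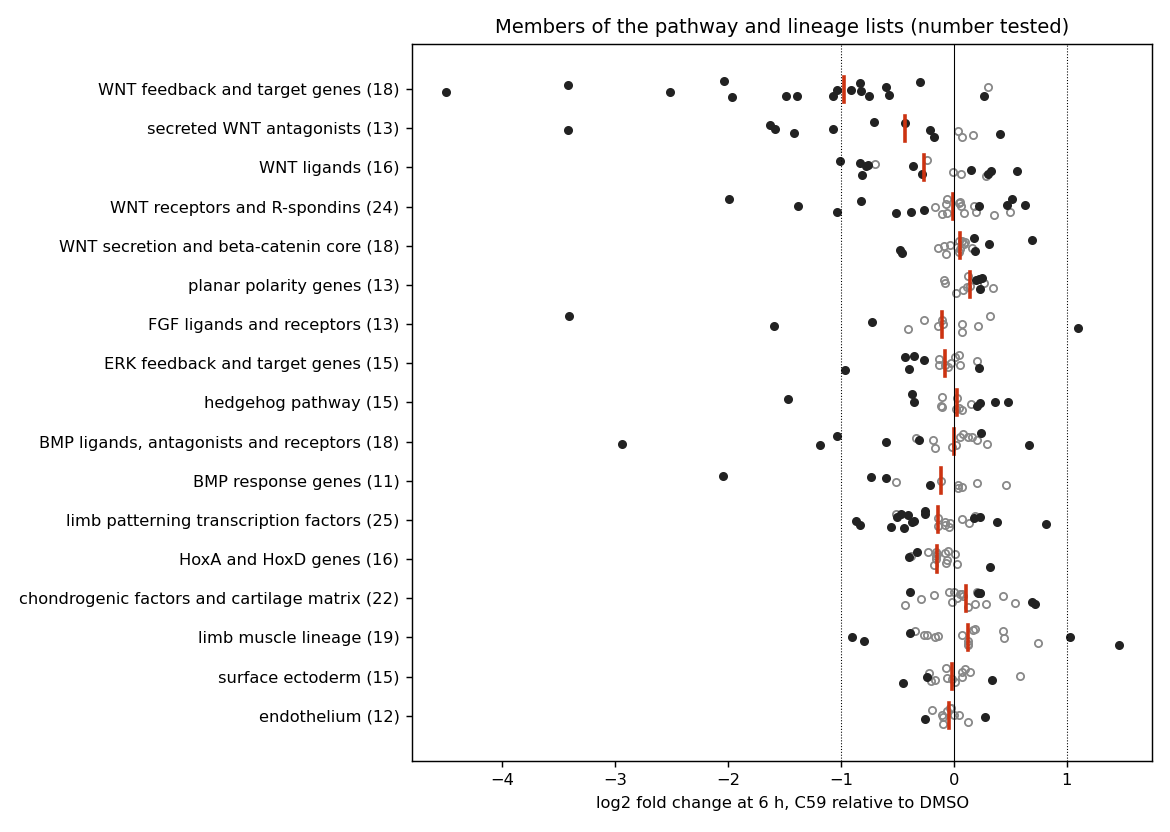
Log2 fold change of C59 relative to DMSO at 6 h for each tested member of 17 lists, with the number tested in parentheses. Filled points have an adjusted p below 0.05, open points do not, red bars are list medians and dotted lines mark a log2 fold change of 1 in either direction. The WNT feedback list has the lowest median (-0.97), followed by the secreted antagonists (-0.43), and the other lists hold single far members such as *Grem1*, *Fgf4* and *Msx1*.

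The AER signals fell within 6 h. *Fgf8*, expressed along the whole ridge, stood at 35.8, 31.8 and 32.8 CPM in DMSO and at 10.6, 11.0 and 11.7 CPM in C59, a log2 fold change of -1.59 ± 0.08 (edgeR adjusted p = 1.68e-08). *Fgf4*, a posterior ridge ligand, was rarer at 1.19, 1.07 and 2.26 CPM against 0.127, 0.0481 and 0.220 CPM (-3.41 ± 0.52, edgeR adjusted p = 0.000429). The third ligand that fell, *Fgf9*, changed by -0.72 ± 0.17. *Fgf10*, the mesenchymal ligand that maintains the ridge, showed no detectable change, with 29.4, 27.1 and 30.7 CPM against 33.7, 30.5 and 36.7 CPM (0.21 ± 0.08, edgeR adjusted p = 0.0729). *Fgfr4*, a receptor of myogenic cells, rose from 4.42, 4.90 and 5.79 CPM to 11.8, 10.7 and 9.56 CPM (1.10 ± 0.14, edgeR adjusted p = 0.00012), and stood at 0.96 with the Y-linked covariate, short of the fold threshold. Over the 13 FGF ligands and receptors tested, 3 were lower and 1 higher without a minimum fold, with a median of -0.10.

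No gene that reads out FGF signaling through ERK was called at this time. Of 15 tested 5 were lower (33.3%, against 11.4% of all genes) and 1 higher without a minimum fold, and the median was -0.08. *Dusp6*, the ERK phosphatase, measured 243, 242 and 246 CPM in DMSO and 218, 218 and 234 CPM in C59 (-0.13 ± 0.05, edgeR adjusted p = 0.0632). The ETS factor *Etv5* was at 137, 134 and 121 CPM against 135, 121 and 129 CPM (-0.02 ± 0.06, edgeR adjusted p = 0.826), with overlapping groups, and *Etv4* fell by 0.26 ± 0.06. The larger decreases were those of *Dusp5* (-0.96 ± 0.16), *Dusp4* (-0.43 ± 0.06) and *Spry1* (-0.40 ± 0.06), all feedback inhibitors. *Etv4* and *Dusp4* did not pass with the Y-linked covariate (edgeR adjusted p = 0.244 and 0.068). By 12 h the list stood at a median of -0.59, with 13 of 15 genes lower (25.5% of all genes tested at 12 h were). The decrease deepened between 6 and 12 h, by the interaction contrast without a minimum change, for 12 of the 15, against 11.5% of all genes tested. It amounted to -1.92 ± 0.10 for *Etv4*, -1.47 ± 0.13 for *Etv5* and -1.14 ± 0.06 for *Dusp6*.

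Ridge genes were partly changed. The summed level of 5 ridge markers went from 99.9 to 106 CPM in DMSO to 65.4 to 68.1 CPM in C59, with 3 of the 5 lower. The 5 were *Fgf8*, *Sp8*, *Sp9*, *Dlx5* and *Trp63*. *Fgf8*, described above, made up most of that difference. Among 14 ridge and ectoderm transcription factors tested, 3 were lower and 1 higher without a minimum fold, with a median of -0.20. *Sp8*, required for the ridge, fell from 16.8, 17.1 and 16.3 CPM to 12.4, 9.67 and 11.3 CPM (-0.59 ± 0.10, edgeR adjusted p = 0.00127), and the homeobox gene *Dlx5* by 0.64 ± 0.12. *Tfap2c* was called at -1.10 ± 0.11 with 26.3, 24.5 and 23.2 CPM against 9.87, 11.2 and 13.6 CPM, and stood at -0.99 without C59 replicate 1 and at -0.95 with the Y-linked covariate. *Trp63*, the master gene of stratified epithelium, measured 39.6, 37.9 and 43.0 CPM against 35.5, 36.0 and 37.9 CPM (-0.14 ± 0.06, edgeR adjusted p = 0.158). Ectoderm markers summed to 259 to 287 CPM and 283 to 292 CPM, and among 15 surface ectoderm genes 2 were lower and 1, *Krt5*, higher (0.34 ± 0.06, edgeR adjusted p = 0.103 with the Y-linked covariate).

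In the hedgehog pathway the ligand fell while its transcriptional targets did not. *Shh* (chromosome 5, 28456815 to 28467256), the signal of the polarizing region, stood at 14.3, 14.1 and 15.2 CPM in DMSO and at 5.06, 5.63 and 5.02 CPM in C59 (-1.47 ± 0.11, edgeR adjusted p = 1.33e-06). *Ptch1*, the receptor and a direct target, was higher at 178, 166 and 171 CPM in C59 against 124, 145 and 132 CPM in DMSO (0.36 ± 0.06, edgeR adjusted p = 0.000551). The other targets *Gli1* and *Hhip* also had higher means (0.23 ± 0.06 and 0.48 ± 0.15), but their adjusted p exceeded 0.05 when any of several libraries was left out (0.0816 without DMSO replicate 3 for *Gli1* and 0.130 without C59 replicate 3 for *Hhip*), as it did with the Y-linked covariate (0.412 and 0.269). The coreceptor *Gas1* fell by 0.36 ± 0.05 and *Disp1*, which releases the ligand, by 0.37 ± 0.06. Of 15 hedgehog genes 3 were lower and 4 higher without a minimum fold, and the median was 0.03.

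The effect on *Shh* deepened to -6.09 ± 0.32 at 12 h, a change of -4.62 ± 0.34 by the interaction contrast (edgeR adjusted p = 5e-07). For *Ptch1* the effect at 12 h was 0.05 ± 0.08, and the change from 6 h was -0.31 ± 0.10 (edgeR adjusted p = 0.0467).

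In the BMP pathway both antagonists and ligands were among the genes that fell. *Grem1* (chromosome 2, 113746164 to 113758646), the mesenchymal BMP antagonist that links *Shh* to the ridge, fell from 69.2, 71.2 and 68.4 CPM to 9.23, 8.13 and 9.78 CPM, a log2 fold change of -2.94 ± 0.07 (edgeR adjusted p = 6.66e-12). *Bmp4* went from 88.1, 81.5 and 83.3 CPM to 38.6, 43.4 and 41.9 CPM (-1.03 ± 0.06, edgeR adjusted p = 7.8e-08), and *Bmp7* from 103, 100 and 101 CPM to 64.0, 69.1 and 68.5 CPM (-0.60 ± 0.05). *Bmp4* stood at -0.98 without C59 replicate 1 and at just under 1.00 in size without DMSO replicate 1, both short of the fold threshold. The ligand *Bmp2* showed no detectable change (-0.19 ± 0.11, edgeR adjusted p = 0.238). *Fst*, an activin and BMP binding protein, went from 3.80, 4.18 and 3.53 CPM to 1.39, 2.07 and 1.63 CPM (-1.18 ± 0.22, edgeR adjusted p = 0.00191). The antagonist *Nbl1* was also called lower. It stood short of the fold threshold without DMSO replicate 2 (-0.99), without C59 replicate 1 (-0.96) and without C59 replicate 3 (-0.91). Another antagonist, *Chrd*, was higher and had the highest value of the list (0.66), but did not pass with the Y-linked covariate (edgeR adjusted p = 0.147). Of 18 BMP genes 5 were lower and 2 higher without a minimum fold, with a median of -0.00.

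BMP response genes were divided. *Msx1*, a homeobox factor that keeps distal mesenchyme undifferentiated, fell from 163, 159 and 157 CPM to 40.7, 37.0 and 38.5 CPM (-2.04 ± 0.05, edgeR adjusted p = 6.66e-12). *Msx2* fell by 0.73 ± 0.11. The ID genes, which respond to BMP receptors in most tissues, were not detectably different for *Id1* (125, 109 and 117 CPM against 128, 120 and 113 CPM, 0.04 ± 0.06, edgeR adjusted p = 0.705) and *Id3* (0.03 ± 0.05, edgeR adjusted p = 0.719). *Id2* was lower, but its edgeR adjusted p was 0.0516 without C59 replicate 2, 0.0594 without C59 replicate 3 and 0.528 with the Y-linked covariate. *Id4* had the highest value of the list (0.46) and did not pass. Of 11 response genes 4 were lower and none higher, and the median was -0.11.

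Of 14 mesenchymal transcription factors of the Twist, Snail and Prrx families and genes listed with them, 9 were lower (64.3%, against 11.4% of all genes) and 2 higher (14.3%, against 8.2%), with a median of -0.28. *Twist1*, a basic helix-loop-helix factor of early limb mesenchyme, went from 407, 393 and 407 CPM to 151, 154 and 156 CPM (-1.39 ± 0.04, edgeR adjusted p = 5.63e-11). Its paralog *Twist2* went from 10.02, 12.9 and 13.8 CPM to 4.98, 4.91 and 4.23 CPM (-1.37 ± 0.15, edgeR adjusted p = 2.54e-05). Changes short of the fold threshold were seen for *Tcf12*, a dimerisation partner of Twist proteins (-0.43 ± 0.04), for *Prrx1* (-0.34 ± 0.05) and for the genes of early developmental timing listed with them, *Lin28a* (-0.87 ± 0.14), *Lin28b* (-0.30 ± 0.07) and *Hmga2* (-0.40 ± 0.05). Of these, *Prrx1*, *Lin28b* and *Hmga2* did not pass with the Y-linked covariate (edgeR adjusted p = 0.322, 0.673 and 0.230). *Mecom* rose by 0.40 ± 0.05. *Prdm1*, a repressor expressed in ridge and mesenchyme, was called, at 9.32, 11.2 and 11.7 CPM against 4.89, 4.18 and 5.20 CPM (-1.16 ± 0.14, edgeR adjusted p = 7.25e-05).

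Patterning factors changed by smaller amounts. Among 25 limb patterning transcription factors none was called, 11 were lower and 4 higher without a minimum fold, and the median was -0.14. *Irx3* and *Irx5*, needed in the early anterior bud, fell by 0.86 ± 0.07 and 0.56 ± 0.09. *Lmx1b*, the dorsal determinant, went from 189, 200 and 191 CPM to 140, 133 and 136 CPM (-0.51 ± 0.05, edgeR adjusted p = 5.81e-06). The anterior genes *Alx4* and *Alx1* fell by 0.44 ± 0.05 and 0.83 ± 0.16, while *Pax9* rose by 0.82 ± 0.20 at under 4 CPM and *Sall3* by 0.38 ± 0.07. *Hand2*, which activates *Shh*, was not detectably different (130, 121 and 120 CPM against 121, 124 and 114 CPM, -0.04 ± 0.05, edgeR adjusted p = 0.597).

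Hox genes specify segments along the limb. Of 16 HoxA and HoxD genes, *Hoxa11* (-0.40 ± 0.06) and *Hoxd9* (-0.32 ± 0.05) were lower (12.5%, against 11.4% of all genes), *Hoxa13* (0.32 ± 0.06) was higher (6.25%, against 8.2%), and the median was -0.15. These shares were near those of all genes, and none of the 3 passed with the Y-linked covariate (edgeR adjusted p = 0.0752, 0.236 and 0.0875). The autopod gene *Hoxd13* measured 189, 193 and 183 CPM against 205, 185 and 187 CPM (0.03 ± 0.05, edgeR adjusted p = 0.725). Of 17 proximal factors and retinoic acid genes 6 were lower and 1 higher, among them *Cyp26b1*, the enzyme that clears retinoic acid distally (-0.33 ± 0.07), the retinol receptor *Stra6* (-0.36 ± 0.06) and the binding protein *Crabp1* (-0.39 ± 0.07). The covariate left *Cyp26b1* and *Crabp1* at edgeR adjusted p of 0.0700 and 0.0611.

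*Igf1* was the growth factor gene with the largest decrease in its list. It stood at 69.9, 92.6 and 83.7 CPM in DMSO and at 23.6, 30.4 and 30.6 CPM in C59 (-1.54 ± 0.11, edgeR adjusted p = 4.92e-07). *Igfbp5*, which binds IGFs, rose from 622, 665 and 623 CPM to 863, 1084 and 963 CPM (0.61 ± 0.07, edgeR adjusted p = 3.61e-05). Over 15 insulin-like growth factor genes 3 were lower and 4 higher, with a median of 0.04. The neurotrophin *Bdnf* fell from 8.996, 10.7 and 10.4 CPM to 3.37, 4.14 and 4.05 CPM (-1.38 ± 0.14, edgeR adjusted p = 1.95e-05).

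Among MYC genes, cyclins and CDK inhibitors (21 tested, 7 lower, 5 higher), *Myc* fell by 0.52 ± 0.07 and *Cdk6* by 0.48 ± 0.11. Inhibitors of the cycle rose: *Cdkn1b* by 0.41 ± 0.06 (62.8, 72.4 and 68.3 CPM to 83.6, 96.0 and 90.4 CPM), *Cdkn1c* by 0.35 ± 0.05 and the antiproliferative gene *Btg2* by 0.50 ± 0.08. *Cdk6* and *Cdkn1c* did not pass with the Y-linked covariate (edgeR adjusted p = 0.259 and 0.231). *Ccng2*, a cyclin of arrested cells, was among the 10 genes with the smallest adjusted p below the fold threshold, with 91.9, 89.7 and 89.4 CPM against 147, 150 and 148 CPM (0.71 ± 0.04, edgeR adjusted p = 1.56e-07).

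Ribosome biogenesis genes were lower with near uniformity. Of 24 tested 21 were lower and none higher, against 11.4% of all genes lower, and the median was -0.39. *Gnl3* (nucleostemin) went from 107, 96.5 and 99.0 CPM to 54.1, 59.2 and 56.2 CPM (-0.84 ± 0.06, edgeR adjusted p = 4.55e-07). *Nop2*, a methyltransferase of ribosomal RNA, went from 104, 105 and 102 CPM to 63.1, 64.3 and 63.9 CPM (-0.70 ± 0.05, edgeR adjusted p = 3.53e-07). The box C/D ribonucleoprotein *Nop56* fell by 0.63 ± 0.05, nucleolin (*Ncl*) by 0.36 ± 0.04 and *Npm1* by 0.32 ± 0.05. With the Y-linked covariate 14 of the 24 were lower, and *Ncl* and *Npm1* were not among them (edgeR adjusted p = 0.158 and 0.428). Outside the list, the nucleolar helicase *Ddx21* (-0.69 ± 0.05) and enzymes of nucleotide, methionine and branched-chain amino acid metabolism were among the 10 genes with the smallest adjusted p below the fold threshold. These enzymes were *Ctps* (-0.59 ± 0.04), *Mat2a* (-0.57 ± 0.04) and *Bcat1* (83.9, 85.2 and 81.2 CPM to 45.0, 44.0 and 47.0 CPM, -0.88 ± 0.05, edgeR adjusted p = 1.21e-07).

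Many cholesterol synthesis and uptake genes were also lower. Of 20 tested 13 were lower and none higher, with a median of -0.22, and 7 were lower with the Y-linked covariate. The methylsterol oxidase *Msmo1* went from 70.1, 61.4 and 68.3 CPM to 49.5, 47.6 and 49.2 CPM (-0.45 ± 0.06, edgeR adjusted p = 0.00016, or 0.0538 with the covariate). The sterol sensor partner *Insig1* fell by 0.45 ± 0.06. At 1 h the list had been in the opposite direction, with 7 genes higher and none lower and a median of 0.17. Of all genes tested at 1 h, 1.14% were higher and 1.61% lower. At 12 h 19 of 20 were lower with a median of -0.95, against 25.5% of all genes tested at 12 h.

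**Figure D3:**
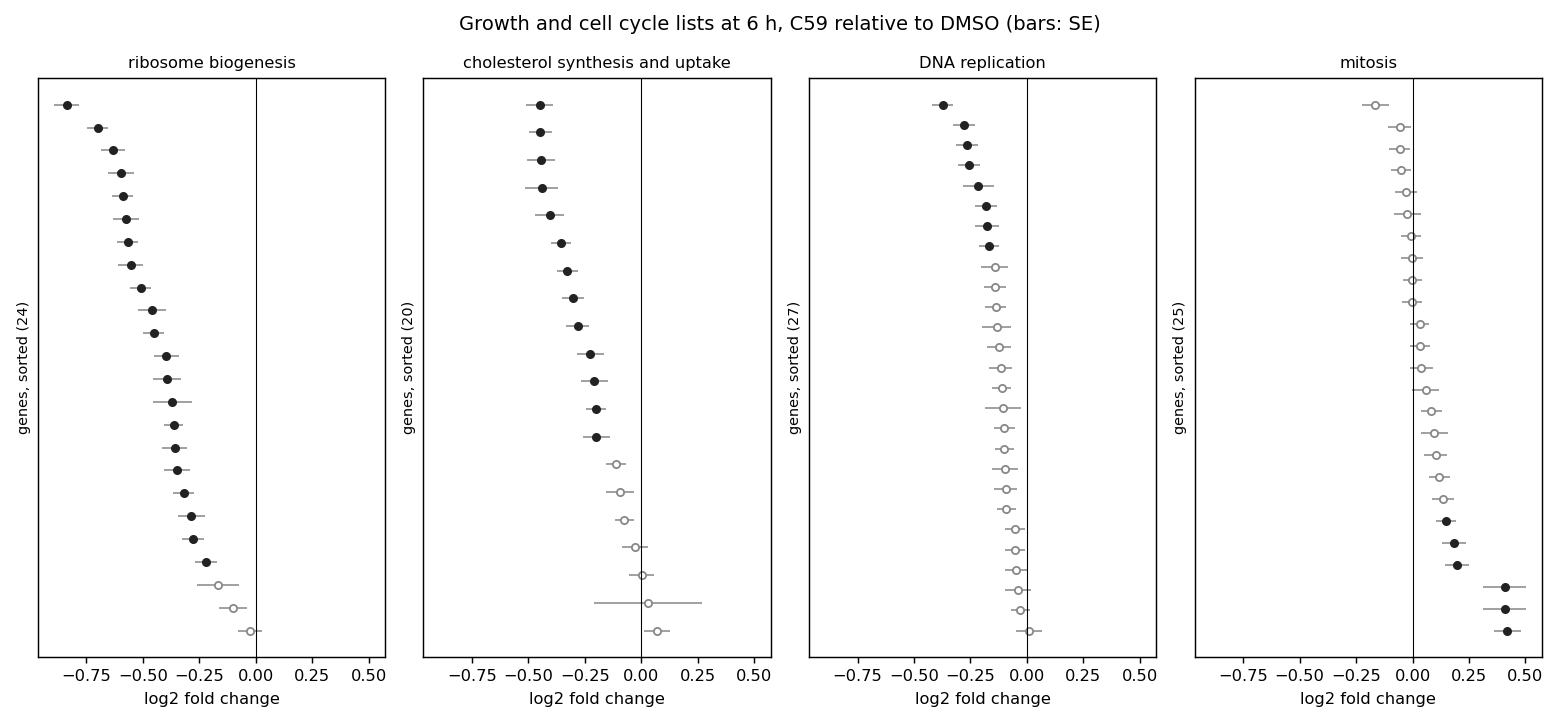
Log2 fold change (C59 relative to DMSO, 6 h) of each tested gene of the ribosome biogenesis, cholesterol, DNA replication and mitosis lists, sorted within each list, with the lowest at the top and genes not named on the vertical axis. Bars are SE, filled points have an adjusted p below 0.05 and open points do not. Of the ribosome biogenesis genes 21 of 24 are filled and lie below 0, while 6 of 25 mitosis genes are filled and lie above 0.

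DNA replication genes changed by small amounts at 6 h. Of 27 tested 8 were lower and none higher, with a median of -0.12. The number lower was 12 without DMSO replicate 2, 5 without DMSO replicate 3, 4 with each C59 replicate left out in turn and 2 with the Y-linked covariate. *Ccne1*, the cyclin of S phase entry, went from 106, 108 and 108 CPM to 83.3, 83.2 and 82.5 CPM (-0.37 ± 0.05, edgeR adjusted p = 7.96e-05), and the helicase subunit *Mcm7* fell by 0.27 ± 0.05 (edgeR adjusted p = 0.0877 with the covariate). *Pcna*, the polymerase clamp, was not detectably different (-0.09 ± 0.05, edgeR adjusted p = 0.205). At 12 h all 27 were lower with a median of -0.71, against 25.5% of all genes tested at 12 h. For 26 the decrease deepened from 6 h by the interaction contrast without a minimum change, against 11.5% of all genes.

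Mitosis genes did not follow. Among 25 tested none was lower and 6 were higher at 6 h, with a median of 0.04. *Cenpe*, a centromere motor, had 155, 185 and 161 CPM in DMSO and 230, 217 and 224 CPM in C59 (0.42 ± 0.06, edgeR adjusted p = 0.000291, or 0.0980 with the Y-linked covariate). *Ccnb1*, the mitotic cyclin, had overlapping groups (-0.00 ± 0.05, edgeR adjusted p = 0.979). The count of higher mitosis genes was not stable. It was 3 without DMSO replicate 3, 2 without C59 replicate 1 or C59 replicate 3, and 0 in the fits over all 30 libraries with and without the Y-linked covariate. By 12 h 20 of the 25 were lower, against 25.5% of all genes tested at 12 h.

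Stress and metabolic lists showed partial changes. Of 17 ATF4 and serine synthesis genes 8 were lower and 1 higher, with a median of -0.13. The cystine transporter *Slc7a11* was called, with 16.03, 20.6 and 18.2 CPM against 8.98, 6.49 and 7.40 CPM (-1.25 ± 0.13, edgeR adjusted p = 2.1e-05), and the folate-cycle enzyme *Mthfd2* fell by 0.59 ± 0.06. *Atf4* itself fell by 0.36 ± 0.05, while *Ddit4*, an inhibitor of mTOR signaling, rose from 123, 122 and 116 CPM to 189, 180 and 172 CPM (0.59 ± 0.05, edgeR adjusted p = 3.14e-06). *Arrdc3*, an arrestin-related adaptor, rose from 91.0, 89.7 and 86.6 CPM to 151, 150 and 147 CPM (0.74 ± 0.05, edgeR adjusted p = 1.43e-07). It was the only gene among the 10 with the smallest adjusted p below the fold threshold whose effect was nearly as large at 1 h (0.68).

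Cell death genes moved both ways, with 4 of 18 lower and 7 higher and a median of 0.07. The BH3-only gene *Bmf* rose by 0.59 ± 0.06 (93.2, 88.9 and 104 CPM to 146, 146 and 137 CPM) and *Pmaip1* by 0.41 ± 0.05, and *Bok* fell by 0.72 ± 0.11. Of 15 heat shock and chaperone genes 6 were lower, among them the mitochondrial chaperonin *Hspd1* (-0.40 ± 0.04) and *Hsp90aa1* (-0.32 ± 0.04, edgeR adjusted p = 0.335 with the Y-linked covariate), and 1 higher. Of 23 hypoxia and glycolysis genes 5 were lower and 1 higher with a median of 0.00, including hexokinase *Hk2* (-0.55 ± 0.08) and the glucose transporter *Slc2a3* (-0.48 ± 0.05). Among 17 immediate early genes, which report handling of tissue as well as signaling, 1 was higher and none lower. That gene, *Egr1*, did not pass with the Y-linked covariate (edgeR adjusted p = 0.252). Circadian clock genes (15 tested) had 1 lower member, *Cry1* (-0.36 ± 0.06). Of 11 genes of the aryl hydrocarbon and oxidative stress response 2 were lower, including *Txnrd1* (-0.45 ± 0.04).

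*Sox9* (chromosome 11, 112782224 to 112787760), the factor that commits mesenchyme to cartilage, rose from 220, 222 and 203 CPM to 370, 331 and 359 CPM, a log2 fold change of 0.72 ± 0.05 (edgeR adjusted p = 1e-06). Of 22 chondrogenic factors and matrix genes tested 4 were higher and 1 lower, with a median of 0.11. At 12 h 15 of the 22 were higher (22% of all genes tested at 12 h were), the median was 1.00, and for 13 the effect rose from 6 to 12 h by the interaction contrast without a minimum change, against 6.59% of all genes. *Col2a1*, the main cartilage collagen, changed from 0.24 ± 0.08 at 6 h to 1.05 ± 0.12 at 12 h (change 0.81 ± 0.17, edgeR adjusted p = 0.00321), and its adjusted p at 6 h was 0.104 without DMSO replicate 1, 0.105 without DMSO replicate 3, 0.235 without C59 replicate 1, 0.150 without C59 replicate 2 and 0.602 with the Y-linked covariate.

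Connective tissue genes moved in both directions. Among 15 condensation adhesion and matrix genes 6 were higher (40%, against 8.2% of all genes) and 2 lower (13.3%, against 11.4%), with a median of 0.20. The higher ones included *Ncam1* (0.36 ± 0.07) and the fibrillar collagen *Col1a1* (0.35 ± 0.07), neither of which passed with the Y-linked covariate (edgeR adjusted p = 0.169 and 0.353). Of 9 tendon and connective tissue genes 4 were higher and 2 lower (44.4% and 22.2%). *Scx*, the tendon progenitor factor, went from 65.2, 59.5 and 69.3 CPM to 85.5, 89.8 and 88.0 CPM (0.44 ± 0.06, edgeR adjusted p = 0.000158), whereas *Mkx*, another tendon factor, fell by 0.67 ± 0.10. *Has2*, which makes hyaluronan, went from 23.2, 23.9 and 26.6 CPM to 11.0, 12.1 and 12.7 CPM (-1.04 ± 0.09), and stood at -0.98 without C59 replicate 1 and without DMSO replicate 3, and at -0.97 with the covariate.

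Of 19 genes of the muscle lineage 14 did not pass, and those that passed moved in both directions. *Pax3*, which marks migrating limb muscle progenitors, fell from 21.9, 21.6 and 22.2 CPM to 10.7, 12.8 and 14.4 CPM (-0.80 ± 0.10, edgeR adjusted p = 0.000131). *Myod1*, a myogenic determination factor, rose from 13.3, 12.9 and 14.998 CPM to 40.2, 40.5 and 32.2 CPM (1.46 ± 0.10, edgeR adjusted p = 3.91e-07). *Myog*, which acts later, measured 10.4, 11.3 and 10.48 CPM against 19.9, 26.6 and 19.5 CPM (1.03 ± 0.12), and 0.88 without C59 replicate 2, and did not pass with the Y-linked covariate (0.75, edgeR adjusted p = 0.113). *Vgll2*, a cofactor of muscle differentiation, was called outside the list at 2.82, 1.79 and 2.08 CPM against 5.14, 6.25 and 5.37 CPM (1.30 ± 0.20, edgeR adjusted p = 0.000445). *Eya1* fell by 0.39 ± 0.07. *Chrna1*, a subunit of the acetylcholine receptor of differentiated muscle, was the lowest of the list, from 1.92 to 2.86 CPM in DMSO and from 1.18 to 1.32 CPM in C59 (-0.90 ± 0.26, edgeR adjusted p = 0.0239), and passed in only 1 of the 6 fits that left out a library. *Eya1* and *Chrna1* did not pass with the Y-linked covariate (edgeR adjusted p = 0.0804 and 0.0563). Of 19 muscle genes 3 were lower and 2 higher, with a median of 0.12. These shares were near those of all genes (11.4% lower and 8.2% higher). The 4 progenitor markers summed to 111 to 123 CPM in DMSO and 104 to 115 CPM in C59. The effect on *Myod1* shrank to 0.55 ± 0.14 at 12 h (change -0.91 ± 0.19, edgeR adjusted p = 0.00377) and that on *Pax3* deepened (change -1.25 ± 0.21).

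Single neural and glial genes rose at low levels, while the median of the neural tube list was below 0. *Lhx1*, a LIM-homeobox gene, stood at 0.409, 0.408 and 0.232 CPM in DMSO and at 2.19, 2.12 and 2.07 CPM in C59 (2.55 ± 0.32, edgeR adjusted p = 0.000111). *Dmbx1*, a homeobox gene known from the brain, went from 0.327, 0.561 and 0.463 CPM to 2.83, 2.36 and 2.25 CPM (2.47 ± 0.31, edgeR adjusted p = 0.000104), and the cadherin *Cdh22* from 2.74, 2.40 and 3.65 CPM to 10.2, 10.3 and 9.73 CPM (1.79 ± 0.16, edgeR adjusted p = 4.65e-06). These groups did not overlap, and all of these effects shrank by 12 h, with changes of -1.80 ± 0.43, -2.43 ± 0.46 and -1.58 ± 0.29. Of the neural tube list 9 genes were tested, of which 2 were higher and none lower, with a median of -0.17, and 11 neural tube markers summed to 24.1 to 25.7 CPM in DMSO and 23.9 to 24.7 CPM in C59. For Schwann cell precursors, *Cdh19* rose from 0.450, 0.255 and 0.463 CPM to 2.02, 1.44 and 1.23 CPM (1.99 ± 0.37, edgeR adjusted p = 0.00186), and their 6 markers summed to 30.2 to 35.5 CPM in DMSO and 40.1 to 52.2 CPM in C59, with 3 higher. Of these 3, *Erbb3* (0.42 ± 0.10) had an adjusted p of 0.0525 without C59 replicate 2 and of 0.355 with the Y-linked covariate. *Sox10*, their defining factor, was not detectably different (0.33 ± 0.18, edgeR adjusted p = 0.224). Whether nerve tissue contributed to these values was not tested.

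Markers of other cell types differed in how often they passed. Endothelium markers summed to 359 to 369 CPM and 357 to 374 CPM, and 1 of 12 endothelial genes was lower and 1 higher. Erythroid markers summed to 3052 to 3384 CPM in DMSO and 2288 to 3071 CPM in C59, and 4 of 10 genes were lower (40%, against 11.4% of all genes), including adult-type globin *Hbb-bs* (-0.79 ± 0.12). Macrophage markers summed to 29.9 to 31.0 CPM and 29.6 to 42.7 CPM, and none of 12 genes passed. Coelomic lining markers were at 6.60 to 7.77 CPM and 2.23 to 10.7 CPM, and somite markers at 81.7 to 96.0 CPM and 68.6 to 80.5 CPM. Among 8 coelomic, flank and somite genes *Meox2* (-0.61 ± 0.06) and *Pax1* (-0.38 ± 0.07) were lower (25%) and *Foxc2* was higher (0.63 ± 0.13). *Hbb-bs*, *Pax1* and *Foxc2* did not pass with the Y-linked covariate (edgeR adjusted p = 0.395, 0.106 and 0.111).

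Of the remaining signaling lists, the Notch pathway had 5 of 17 genes higher and none lower (median 0.18), with *Jag1*, a ligand, at 0.27 ± 0.06. *Notch1* and *Hes1*, also higher, did not pass with the Y-linked covariate (edgeR adjusted p = 0.397 and 0.203). TGF-beta and activin genes had 6 of 19 higher and 1 lower, the called *Fst*, with a median of 0.19. *Ltbp1* was higher at 6 h but did not pass with the covariate (edgeR adjusted p = 0.252). Eph receptors and ephrins, which sort cells at boundaries, had 3 of 17 higher and 2 lower, with *Epha4* and *Ephb3* up by 0.39 ± 0.06 and 0.40 ± 0.05.

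Several of the largest changes fell outside these groups. Among decreases, *Jaml*, a junctional adhesion molecule of leukocytes, went from 2.49, 1.79 and 2.37 CPM to 0.169, 0.144 and 0.0440 CPM (-4.16 ± 0.42, edgeR adjusted p = 1.74e-05). The calcium-activated channel gene *Ano2* measured 1.39, 1.84 and 1.97 CPM against 0.253, 0.529 and 0.352 CPM (-2.18 ± 0.36), and the desmosomal cadherin *Dsc3* 2.74, 2.30 and 3.59 CPM against 1.27, 0.577 and 0.396 CPM (-1.91 ± 0.35). Both were rare transcripts with groups that did not overlap. Among increases, *Srp54a*, a subunit of the signal recognition particle with near-identical copies in the genome, measured 1.35, 0.714 and 1.27 CPM against 3.12, 5.39 and 3.08 CPM (1.77 ± 0.30), and its counts may be split between the copies. *Prokr2*, a prokineticin receptor, rose by 1.36 ± 0.30, *Plcxd3* by 1.26 ± 0.29, *Morn2* by 1.39 ± 0.29, and the uncharacterised genes *1110002E22Rik* by 1.42 ± 0.27 and *B830017H08Rik* by 1.23 ± 0.19. *Srp54a* and *Prokr2* did not pass with the Y-linked covariate (edgeR adjusted p = 0.0711 and 0.0587). The remaining 4 of the 15 largest increases, *Ptpro*, *Anxa8*, *Nxph4* and *A630089N07Rik*, each lost the call when DMSO replicate 1 was left out (1.05, 1.17, 0.94 and 0.96 on the log2 scale, with edgeR adjusted p of 0.0848, 0.0529, 0.0951 and 0.000336), and *Ptpro* and *Anxa8* did so with the covariate too (0.0804 and 0.0766).

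The effects at 6 h were set beside those at 1 and 12 h, each fitted on its own libraries. Sex makeup varied there too. At 1 h the Y-linked sums were 7.66, 9.03 and 0.0469 FPKM in DMSO and 36.96, 38.2 and 21.2 FPKM in C59. At 12 h they were 0.146, 38.6 and 0.241 FPKM in DMSO and 18.8, 0.108 and 0.417 FPKM in C59. The part of embryo sex in the changes between times was not tested. The 97 called lower genes had a median log2 fold change of -0.08 at 1 h, over the 91 tested there, and -1.14 at 12 h, where 78 of 92 were lower. The decrease from 1 to 6 h passed the interaction contrast with a change beyond 1 for 56 of them (0.829% of all genes tested, with 1.34% in either direction). From 6 to 12 h, where 1.89% of all genes passed in either direction, the effect moved up for 14 (1.36% of all genes) and down for 8 (0.531%). For the 56 called higher genes the medians were 0.07 at 1 h over 44 genes, and 0.76 at 12 h, where 48 of 53 were higher, and 21 passed the change from 1 to 6 h (0.508% of all genes). Since the members were chosen at 6 h, their extreme values there follow in part from that choice.

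Among WNT feedback genes and other limb bud genes the time courses differed between genes. The effect on *Sp5* eased from -4.50 to -2.18 ± 0.31 at 12 h (change 2.31 ± 0.48, edgeR adjusted p = 0.00305), and that on the antagonist *Sost* to -0.26 ± 0.16 (change 1.31 ± 0.22, edgeR adjusted p = 0.000579). *Grem1* eased by 1.02 ± 0.20. *Apcdd1*, *Notum* and *Nkd1* showed no detectable change of effect, with changes of 0.10 ± 0.12, -0.34 ± 0.46 and -0.03 ± 0.08. None of these passed, and changes of the size of their errors were not detectable. The effects on *Dkk1*, *Tcf7*, *Msx1* and *Fgf8* deepened, with changes of -1.30 ± 0.21, -0.89 ± 0.13, -0.96 ± 0.13 and -1.59 ± 0.21. *Wnt11* reversed from -0.78 to 0.44 ± 0.07 (change 1.21 ± 0.16, edgeR adjusted p = 6.76e-05).

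**Figure D4:**
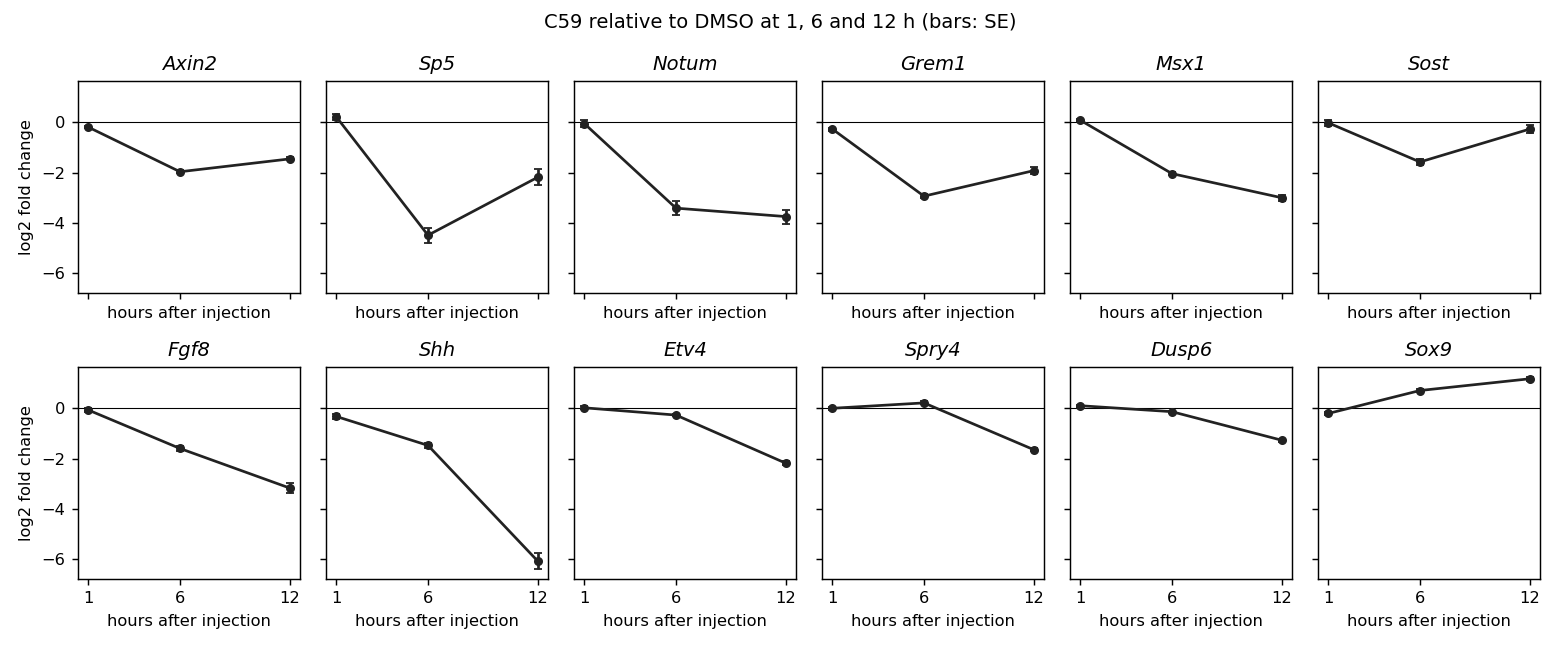
Log2 fold change of C59 relative to DMSO at 1, 6 and 12 h for 12 genes, each time point fitted on its own 6 libraries, with SE as bars. *Axin2*, *Sp5*, *Grem1* and *Sost* are lowest at 6 h, while *Fgf8*, *Shh*, *Etv4*, *Spry4* and *Dusp6* are lowest at 12 h and *Sox9* is highest at 12 h.

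A small set of calls turned on the DMSO libraries of 6 h. For 8 of the 97 lower genes those libraries lay above all 12 DMSO libraries of the other times while the C59 libraries did not lie outside them. Without that condition on the C59 libraries, the DMSO libraries of 6 h lay above the others for 0.977% of all genes. The 8 were *Dkk1*, *Tmc6*, *Tbx19*, *Rp1l1*, *Nr1h5*, *Rpl26*, *Hmga1b* and *Abhd12b*. *Hmga1b*, which shares near-identical sequence with *Hmga1*, stood at 132, 119 and 119 CPM against 32.9, 51.8 and 76.6 CPM (-1.20 ± 0.19), and at -0.94 without C59 replicate 1, and did not pass with the Y-linked covariate (edgeR adjusted p = 0.253). *Dkk1* lost its call as given above. *Tmc6*, a transmembrane channel-like gene, stood at 55.7, 55.7 and 56.6 CPM in DMSO at 6 h and at 21.6, 21.4 and 19.9 CPM in C59 (-1.42 ± 0.06, edgeR adjusted p = 2.2e-09), and the effect moved up by 1.82 ± 0.09 to 12 h. *Rpl26*, a ribosomal protein gene whose reads may be shared with processed copies, stood at 145, 130 and 242 CPM against 30.8, 31.8 and 33.4 CPM (-2.42 ± 0.18, edgeR adjusted p = 9.29e-07). In the scaling over all 30 libraries it was also high in replicates 1 and 2 of C59 at 1 h (202 and 180 CPM) and in all 3 libraries of C59 at 18 h (305, 165 and 221 CPM). For 6 of the 56 higher genes the DMSO libraries of 6 h lay below all other DMSO libraries while the C59 libraries did not lie outside them. Wherever the C59 libraries lay, the DMSO libraries of 6 h were below the others for 0.71% of all genes.

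Called genes without a count in C59 at 6 h numbered 5. *Nr1h5*, a nuclear receptor gene that is a pseudogene in humans, stood at 17.6, 15.6 and 19.1 CPM in DMSO, and was at least 390-fold lower in C59, taking the limit that 3 counts over the group allow. *Rp1l1*, a retinal gene, was at 5.64, 7.75 and 10.9 CPM (at least 182-fold), *Abhd12b* at 2.41, 2.09 and 6.08 CPM (at least 79.0-fold), *Tbx19*, a pituitary T-box factor, at 3.03, 2.19 and 0.637 CPM (at least 43.7-fold) and *Gm3468* at 0.654, 0.510 and 1.04 CPM (at least 16.5-fold). The floor covers counting error only. For *Rp1l1*, *Abhd12b* and *Tbx19* the DMSO libraries of 6 h stood alone, since the 24 libraries of the other times, of either treatment, held at most 0.0460, 0.107 and 0.144 CPM. These limits therefore compare C59 with DMSO libraries that differed from every other DMSO library. *Rp1l1*, *Tbx19* and *Gm3468* did not pass with the Y-linked covariate (edgeR adjusted p = 0.206, 0.0680 and 0.115). Presence did not follow the treatment for *Nr1h5*, which was also found in the 3 libraries of C59 at 1 h (32.3, 21.2 and 25.2 CPM), in a single DMSO library of 18 h (10.2 CPM) and in all 3 libraries of C59 at 18 h (18.1, 7.74 and 6.81 CPM), and at 0 in all others.

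**Figure D5:**
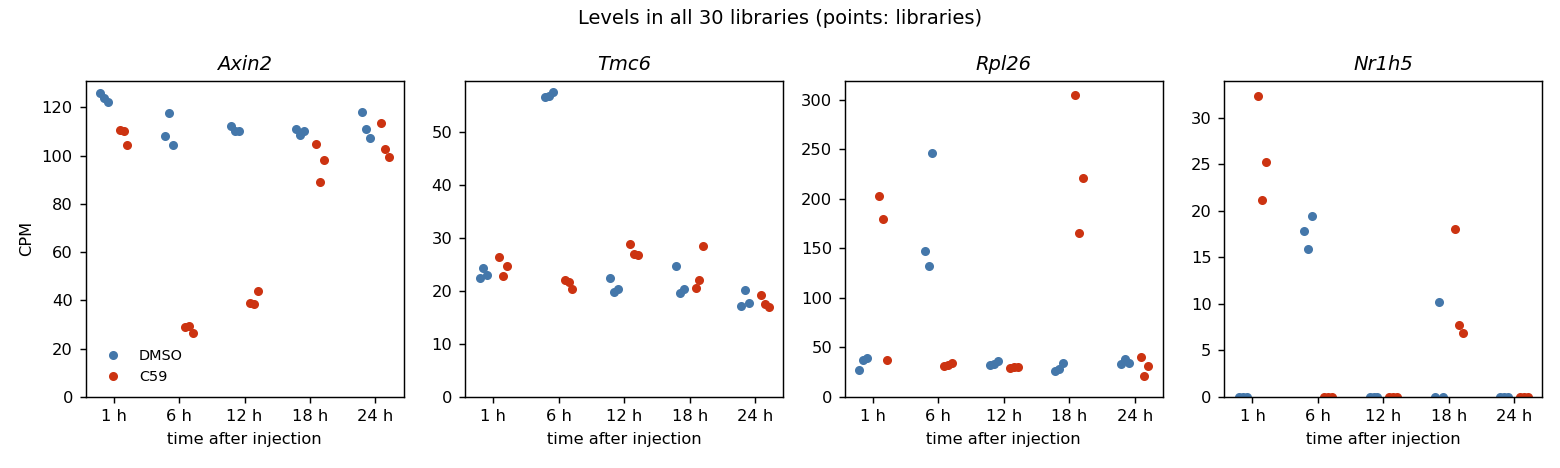
Level of *Axin2*, *Tmc6*, *Rpl26* and *Nr1h5* in all 30 libraries by time after injection, in CPM scaled over all 30, with points for libraries. *Axin2* averages 28.2 and 40.4 CPM in C59 at 6 and 12 h and 97.4 CPM or more in every other group, *Tmc6* is near 57 CPM only in DMSO at 6 h, and *Rpl26* and *Nr1h5* are high in groups of either treatment.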

How the data were processed

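RNA of forelimb buds was sequenced as polyA libraries. The authors trimmed reads with Cutadapt 1.16 and aligned them to mm10 with STAR 2.7.0e and their own annotation, and the deposited counts per gene are STAR's unnormalized read counts, with the strand setting not given in the sources used here. The authors also deposited FPKM from Cufflinks 2.2.1, run unstranded with multi-read and bias correction, which served for alternatives and sex-linked genes. Reads of near-identical copies and of overlapping antisense genes may be split or shared.

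The 6 libraries of 6 h (totals in the report) were compared with edgeR 4.0.16 (R 4.3.3) by its quasi-likelihood F test on protein-coding autosomal genes that passed filterByExpr (minimum count 10, minimum total 15), with TMM factors. SE is the log2 fold change divided by the root of F, and p-values are Benjamini-Hochberg adjusted over all genes tested. CPM are counts scaled to TMM library sizes. The methods state that replicates are different embryos, from 3 or more litters for each treatment and time. Changes between 1, 6 and 12 h are interaction contrasts of 12 libraries. The test was tested on simulated counts. The members and all 44 lists (740 genes) were chosen with earlier results of these data known.

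Named genes are *Axin2*, list members that were called, extreme or carry a known role, the 15 largest increases and 15 largest decreases among called genes without overlap averaging at least 1 CPM, called genes without a count in a group, and the 10 smallest adjusted p below the fold threshold. DESeq2 1.42.0, limma 3.58.1, other scalings, filters, gene sets, thresholds and covariates, and leaving out each library, were alternatives.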

Additional observations from a re-analysis of the deposited data

Results flagged for a closer look

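The effect of C59 on these named genes differed between 6 and 12 h, by the interaction contrast of edgeR with an adjusted p below 0.05 and a change beyond 1 on the log2 scale. The effect moved down (towards lower levels in C59) by a log2 change of -4.62 for *Shh*, -1.92 for *Etv4*, -1.87 for *Spry4*, -1.59 for *Fgf8*, -1.47 for *Etv5* and -1.14 for *Dusp6*, genes of ridge and polarizing signals and of ERK feedback. It also moved down for *T* (-1.64), *Dkk1* (-1.30), *Pax3* (-1.25), the retinoid-binding gene *Crabp1* (-1.08), the sterol regulator *Insig1* (-1.29) and *Gm14226* (-2.20). Genes that were higher at 6 h and moved down were *Dmbx1* (-2.43), *Srp54a* (-2.12), *Lhx1* (-1.80), *Cdh22* (-1.58) and *A630089N07Rik* (-1.12).

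The effect moved up for the WNT genes *Sp5* (2.31), *Sost* (1.31), *Rnf43* (1.28), *Wnt11* (1.21) and *Wnt10a* (1.12) and for the BMP and activin antagonists *Fst* (1.21) and *Grem1* (1.02). It also moved up for *Cldn10* (2.81), *Ano2* (2.55), *Rpl26* (2.26), *Chrna1* (2.24), *Tmc6* (1.82), *Tac1* (1.76), *Adamts16* (1.71), the globin *Hbb-bs* (1.21) and the keratin *Krt14* (1.05). Of these, *Cldn10* and *Krt14* also did not pass at 6 h with the Y-linked covariate (edgeR adjusted p = 0.0813 and 0.143).

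Signals outside the protein-coding autosomal genes were the summed FPKM of 4 Y-linked genes, at 20.3, 19.8 and 33.2 in the C59 libraries and 0 in each DMSO library, and the non-coding genes *Notumos* (log2 fold change -2.63, edgeR adjusted p = 0.00807) and *AI506816* (4.29, edgeR adjusted p = 1.56e-09) in the fit of all autosomal genes.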

How the results depend on the processing

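No named gene that passed in the main fit of the 6 libraries changed direction under any alternative run. Named genes that had not passed there could change sign. *Sox10*, with a higher mean in C59 in the main fit, stood at -0.0012 with the Y-linked covariate. *Axin2* stayed past both thresholds in each fit that called genes by fold and adjusted p. Its log2 fold change was from -2.004 to -1.92 when each of the 6 libraries was left out. Against 153 called genes (97 lower, 56 higher), 37 were higher with DESeq2 (111 in all) and 88 with all autosomal genes (227 in all). On FPKM, limma called 26 (24 lower, 2 higher) with a pseudocount of 1 and 54 (39 lower, 15 higher) with 0.1. Without a minimum fold 2565 passed (1491 lower, 1074 higher), and a test against the fold itself (glmTreat) called 31 (27 lower, 4 higher). With the Y-linked covariate over all 30 libraries 101 were called (30 higher), 87 of them shared, and 140 named genes passed against 221. Leaving out a library gave 121 to 161 called (81 to 97 lower, 32 to 66 higher), and 181 to 205 named genes. Changes from 6 to 12 h numbered 256 (2458 without a minimum change, 214 to 336 with a library left out), and from 1 to 6 h 179 (1736 without a minimum change, 145 to 174 with a library left out). Same-numbered libraries did not deviate together (correlations of -0.0165, -0.0144 and -0.0307), so the numbers do not pair them. With the replicate number as a block 141 genes were called, 140 of them shared, and the block changed 8 of 240 calls of named genes. For each of these settings, the cause of the difference was not tested. Genes under about 1 CPM rest on few counts, and 20 of the 97 decreases lay beyond 2 on the log2 scale, partly at such levels.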

Other observations

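Non-coding genes were tested together with the protein-coding ones in a fit of all autosomal genes, which called 227 of 14890 genes (1.52%). Among the genes that are not protein-coding, 77 of 1790 were called (4.3%), and among processed pseudogenes 44 of 546 (8.06%), against 150 of 13100 protein-coding genes (1.15%). The antisense gene *Notumos*, beside *Notum*, averaged (in the scaling over all 30 libraries, as do the means that follow) 0.752 CPM in DMSO and 0.119 CPM in C59, and without a stated strand setting its reads and those of *Notum* cannot be told apart.

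*9430024E24Rik* went from a mean of 10.2 CPM to 3.08 CPM, *Ptgs2os2* from 2.62 to 0.894 CPM and *Hoxd3os1* from 2.26 to 1.13 CPM, while *5430427N15Rik* went from 0.146 to 1.07 CPM. *AI506816* had the opposite order at different times. It averaged 93.1 CPM in DMSO and 6.92 CPM in C59 at 1 h, 5.42 CPM in DMSO and 104 CPM in C59 at 6 h, and 5.68 CPM in DMSO and 31.6 CPM in C59 at 12 h. *Gm8399* averaged 77.1 CPM in DMSO at 6 h, above all 24 libraries of the other times (1.26 to 3.67 CPM).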
